A study of Mus musculus with 22 samples.

Results

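In chow-fed mouse liver, 3628 of the 13065 peaks of histone H3 trimethylated at lysine 4 (H3K4me3) were shorter than 4000 bp and overlapped no peak of acetylated H3 lysine 27 (H3K27ac) and none of monomethylated H3 lysine 4 (H3K4me1). These 3628 peaks, called members below, made up 27.8% of all H3K4me3 peaks and 29.5% of those under the length limit. A peak was left out if it shared at least 1 base with any row of the 2 deposited lists of union peaks, which join the regions found on chow and on the high-fat diet. The limit sets aside the 783 broad H3K4me3 peaks, of which 94 also overlapped neither mark.

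H3K4me3 is laid down around transcription start sites, most of all at CpG-rich promoters, and marks promoters that are active or ready to be used. H3K27ac is placed by the acetyltransferases CBP and p300 on active promoters and enhancers, and H3K4me1 covers enhancers and the flanks of promoters. A promoter can carry H3K4me3 with little acetylation, for example where Polycomb proteins hold it silent or where transcription is low, so H3K4me3 alone does not say that a gene is transcribed.

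The livers came from wild-type C57BL/6J mice on 2 diets and were profiled for mRNA and for histone marks. The question here is what the H3K4me3 peaks outside the other marks look like and whether the marks around them differ between diets. The chow group ate standard chow throughout, and the high-fat-diet group was switched at 8 weeks of age to a high-fat diet for 16 weeks. All mice were killed at 24 weeks after fasting overnight, and the clamp-frozen livers were ground to powder. H3K4me3 was sequenced in 2 chow libraries, whose peaks were called on the pool, and H3K27ac and H3K4me1 in 3 libraries per diet. H3K4me3 on the high-fat diet was not analysed here, so each member is a feature of the chow livers, with no measure of its spread between animals. The labels number the libraries without saying that each came from a different animal, and they name no batch, so a batch that followed diet cannot be told apart from diet.

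The H3K4me3 pool held 41368069 tags (sequenced fragments after filtering) against 13827021 in the chow IgG control. Counts in union peaks ran from 2037101 to 5772962 per H3K27ac library and from 5487592 to 7380206 per H3K4me1 library. The tissue label was checked with mRNA markers. The 6 hepatocyte genes together took 82848 to 91489 counts per 1000000 (CPM) in the 3 chow libraries and 85899 to 96851 CPM in the 3 high-fat-diet libraries. Summed markers in chow and high-fat-diet livers, respectively, were 34.1 to 44.0 and 37.5 to 64.6 CPM for cholangiocytes, 105 to 118 and 88.0 to 175 CPM for stellate cells, and 128 to 208 and 132 to 273 CPM for endothelial cells. They were 119 to 209 and 138 to 270 CPM for macrophages, of which 6 of 7 markers were listed, and 8.94 to 12.7 and 9.02 to 15.7 CPM for lymphocytes. The 5 pancreatic acinar genes reached 136 to 761 CPM on chow and 9.20 to 91.7 CPM on the high-fat diet, so these groups did not overlap, and the part of this difference in the diet results below was not tested. No marker that the files listed was at 0 in all libraries.

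Members were shorter and held fewer tags than H3K4me3 peaks that carried H3K27ac. Their tag counts ran from 99 to 3325 with a median of 831, and their lengths from 331 to 3985 bp with a median of 1655 bp. The other peaks under 4000 bp comprised 3039 with H3K27ac only, 2467 with H3K4me1 only and 3148 with both. Median tags were 1611, 868 and 1435 in these groups and median lengths 2028, 1969 and 2246 bp. By count the members were the largest of the 4 groups, but they held 18.7% of all tags in H3K4me3 peaks, against 28.7% in the smaller group with H3K27ac only. In bulk tissue, a weak peak can mean fewer cells with the mark or less of the mark per cell, and these cannot be told apart.

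Per unit of length the order changed at the lower end. The members' median density was 507 tags per kb, below 798 with H3K27ac only and 634 with both marks, but above 428 with H3K4me1 only. The fold enrichment, the authors' ratio of tags at the summit to the local background, gave the same order of medians: 25.3 for members, 38.2 with H3K27ac only, 32.1 with both and 19.4 with H3K4me1 only. The groups overlapped widely. The central 80% of members ran from 196 to 891 tags per kb, while the peaks with H3K27ac only ran from 439 to 1084. These are descriptions of 1 pooled list, with no test over samples.

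**Figure D1:**
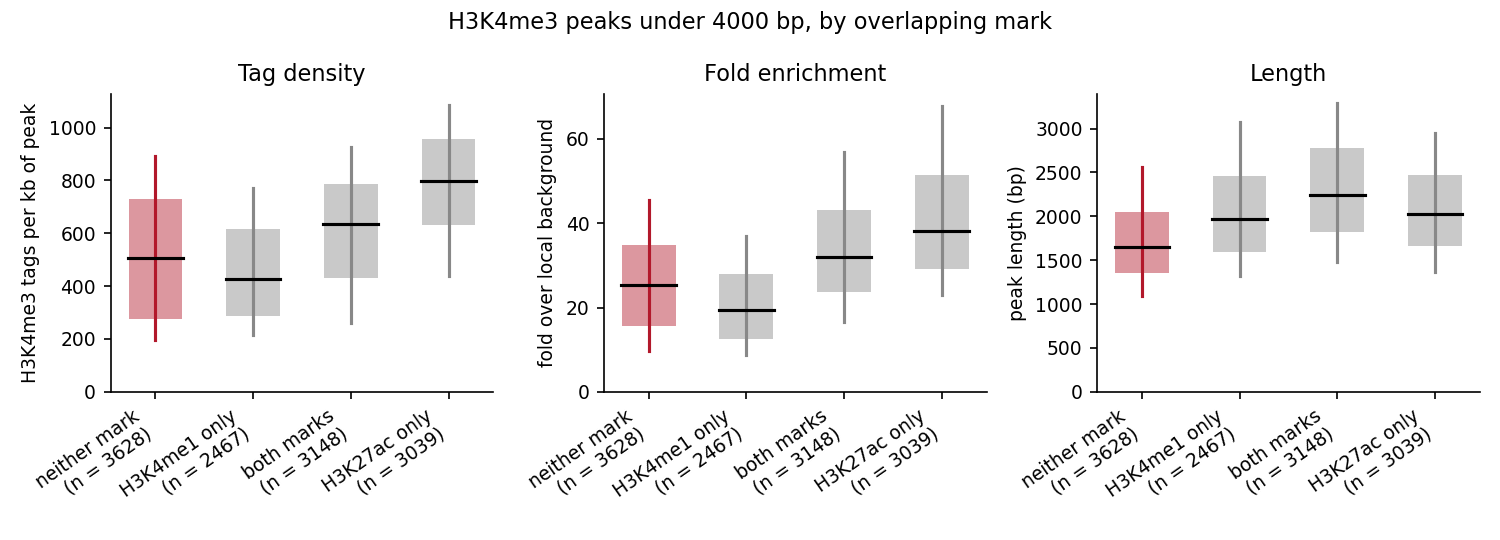
H3K4me3 tag density (tags per kb), fold enrichment over local background and peak length (bp) for the 4 groups of H3K4me3 peaks under 4000 bp; lines mark medians, boxes the 25th to 75th and whiskers the 10th to 90th percentiles. Members (red) have the shortest median length, 1655 bp, and a median density of 507 tags per kb, between the H3K4me1-only and both-marks groups.

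Most members were far above the calling limit. The score of 2089 members (57.6%) sat at the cap of 3100, the highest transformed p value that the caller wrote, as did 55.9% of peaks with H3K4me1 only, 82.7% with both marks and 93.9% with H3K27ac only. At the weak end, 479 members (13.2%) had a false discovery rate above 1%, against 10.01% of peaks with H3K4me1 only, 4.10% with both marks and 1.61% with H3K27ac only. Without them 3149 members were left, and the median density rose from 507 to 569 tags per kb.

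Length and mark status were closely tied. Members made up 63.7% of H3K4me3 peaks of 500 to 1000 bp, 49.3% of those of 1000 to 1500 bp and 33.3% of those of 1500 to 2000 bp. Their share then dropped to 20.1% at 2000 to 2500 bp and to 13.5% at 3500 to 4000 bp. A longer peak also has more bases that can touch a union peak, and the part of this in the fall was not tested. The density of members did not simply follow length. It was highest at 1500 to 2000 bp, with a median of 610.1 tags per kb, and lower in both the shortest (264 at 500 to 1000 bp) and the longest members (248 at 3500 to 4000 bp). Peaks with H3K4me1 only were also less dense when long, with 482 tags per kb at 1500 to 2000 bp and 342 at 3500 to 4000 bp. Peaks with H3K27ac only were as sparse as members at 500 to 1000 bp (255 tags per kb) but held 804 at 1500 to 2000 bp and 779 at 3500 to 4000 bp.

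The length limit fell among mostly weak members. The member just under it, chr5:144004292-144008276, spanned 3985 bp with 759 tags (190 per kb) and the lowest fold enrichment of all members, 4.13. Next to it, chr10:78051253-78055236 held 742 tags at 8.91-fold, and chr15:79841959-79845911 held 1304 tags at 12.47-fold. Just over the limit, chr13:40954949-40958948 spanned 4000 bp with 712 tags at 44.68-fold and lay 118 bases from H3K27ac. The next, chr11:85645080-85649096, held 985 tags at 9.75-fold. After it, chr11:120682715-120686771 held 2350 tags at 15.27-fold and chr1:163177731-163181787 held 2006 tags at 51.8-fold. The peak chr2:27741178-27745240 held 688 tags at 9.84-fold.

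When all H3K4me3 peaks under 4000 bp were ranked by density, the share without other marks fell from bottom to top. Members were 589 of the 1229 peaks in the lowest decile (47.9%) and 200 of the 1229 in the highest (16.3%). The fall was steepest over the first 4 deciles, to 27.4%, and the share then stayed between 22.96% and 29.4% until the ninth. The highest decile began at 957 tags per kb, so members were found among the densest H3K4me3 peaks too. H3K27ac ran the other way, and covered 27.4% of the lowest decile and 80.1% of the highest.

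**Figure D2:**
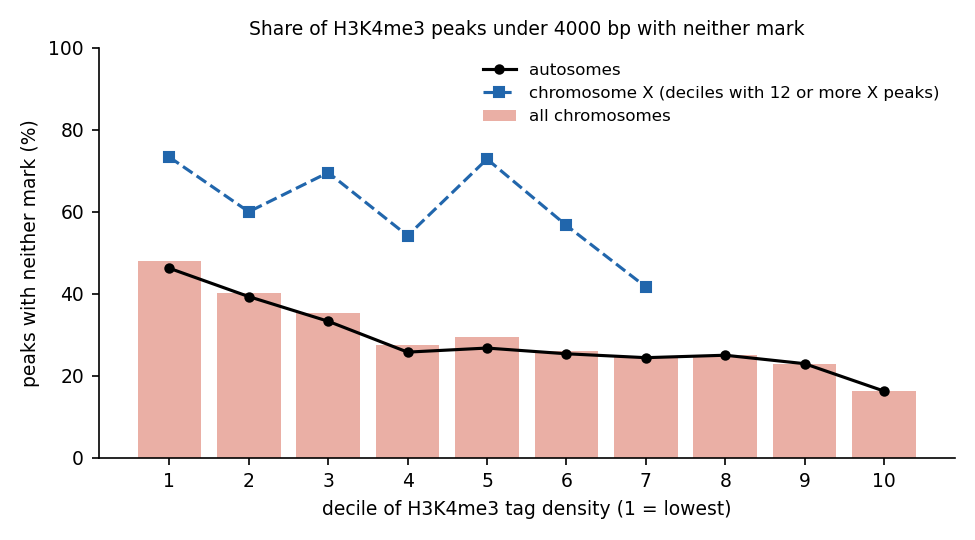
Share (%) of H3K4me3 peaks under 4000 bp that overlap neither mark, by decile of H3K4me3 tag density; bars show all chromosomes, black points the autosomes and blue squares chromosome X where at least 12 X peaks fell in the decile. The share falls from 47.9% to 16.3%, and X lies above the autosomes in each of the 7 deciles drawn.

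The densest members matched the typical H3K4me3 peak with H3K27ac. With the median density of H3K27ac-only peaks (798 tags per kb) as a mark, 657 members (18.1%) reached it. By tags, the first was chr11:69808732-69811319, a peak of 2588 bp with 3325 tags (1285 per kb, 31.54-fold). An H3K27ac union peak lay 772 bases from it. The next, chr1:167693489-167696793, held 3292 tags, with H3K27ac 1450 bases and H3K4me1 1451 bases away, and chr11:16651389-16654794 held 3256 tags with the nearest mark 8600 bases away.

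Strong members did not all lie near an H3K27ac union peak. Of the 10 with most tags, chr3:32634780-32636951 held 2803 tags in 2172 bp (1291 per kb), and its nearest union peak, of H3K4me1, was 161299 bases away. Another, chr9:13630487-13633220, held 3030 tags (1108 per kb) with H3K27ac 76052 bases and H3K4me1 342773 bases away. The remaining 5 of the 10 held 2802 to 3062 tags and lay 1431 to 10678 bases from a union peak. In all, 111 of the 657 strong members were more than 100000 bp from the union peaks of both marks. Among all members, strong or not, 779 (21.5%) lay that far away. None of the 111 strong ones was on chromosome X, which held 2 of the 657.

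The members with the highest fold enrichment were not those with most tags. The first, chr6:124989531-124991121, had 811 tags in 1591 bp (509.7 per kb) and a fold enrichment of 109.74. The other 4 were chr2:14970290-14971383 (100.08-fold, 555 tags), chr3:95392574-95393534 (96.94-fold, 425 tags), chr17:55851063-55852232 (95.31-fold, 867 tags) and chr13:67855496-67856451 (93.28-fold, 499 tags). All 5 were 956 to 1591 bp long, and none was among the 10 with most tags. Their lengths were below the median of all members (1655 bp), while their tags, 425 to 867, lay on both sides of the median of 831.

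Chromosome X stood apart. On the 19 autosomes, members made up 23.2% (chromosome 17) to 31.0% (chromosome 1) of H3K4me3 peaks, and 26.7% (3377 of 12667) over all of them. On X they made up 62.7% (247 of 394). All 4 H3K4me3 peaks on Y were members, with 234 to 436 tags and folds of 37.37 to 59.05, and the union lists held no Y peak of either mark. The X value came with few peaks of the other marks: X held 3.02% of H3K4me3 peaks but 0.881% of H3K27ac union peaks (99 of 11235) and 0.701% of H3K4me1 union peaks (118 of 16834).

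**Figure D3:**
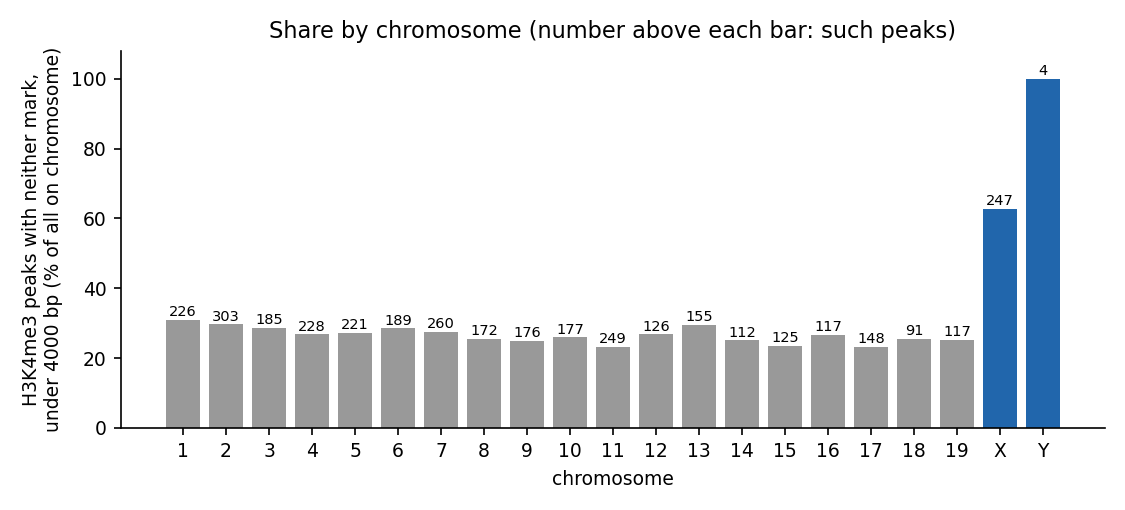
Members as a percentage of all H3K4me3 peaks on each chromosome; the number above each bar is the number of members. The 19 autosomes (grey) lie between 23.2% and 31.0%, X reaches 62.7%, and all 4 peaks on Y are members.

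H3K4me3 was also less dense on X. X members had a median of 397 tags per kb and autosomal members 523, with median lengths of 1529 and 1665 bp. H3K27ac-only H3K4me3 peaks showed the same difference, 560 tags per kb on X and 805 on autosomes. Fold enrichment went the opposite way, with medians of 33.7 for X members and 24.8 for autosomal members, so the 2 measures of strength disagree about X. The 84 X peaks of the chow H3K27ac list had a median of 203 tags per kb, against 260 for the 9567 on autosomes. The sex of the mice is not given in the sources used here, but the 4 Y peaks mean that the chow H3K4me3 pool held Y-chromosome DNA. Whether fewer reads from X contribute to its high share of members was not tested.

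The shares were also set side by side at matched H3K4me3 density, which does not match the signal of the other marks. Within the lowest decile of H3K4me3 density, 55 of 75 X peaks (73.3%) and 46.2% of autosomal peaks were members. In the fifth decile it was 51 of 70 (72.9%) and 26.8%, and in the sixth 17 of 30 (56.7%) and 25.4%. The seventh decile held 12 X peaks, of which 5 were members (41.7%, against 24.4%), and above it X had 9 peaks in all. The share on X was thus higher at matched density in each decile with 12 or more X peaks. Leaving X and Y out changed the members' medians little, to 523 tags per kb, 24.8-fold and 1665 bp.

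Members usually lay at some distance from the union peaks of both marks. Over the 3624 members with a union peak on their chromosome, the median gap to the nearer mark was 28616.5 bp. It was 52206 bp to H3K27ac and 38183.5 bp to H3K4me1, whose list is the longer by 16834 to 11235 peaks. Singly marked H3K4me3 peaks also lay far from the mark they lacked. The median gap to H3K27ac was 42322 bp for peaks with H3K4me1 only. To H3K4me1 it was 24570 bp for peaks with H3K27ac only. H3K4me1 was the nearer mark for 2081 members (57.4%), H3K27ac for 1539, and 4 were tied. Gaps on X were longer, with a median of 138360 bp against 26634 bp on autosomes.

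Few members were near misses of the overlap rule. Within 100 bp of a union peak lay 31, within 1000 bp 168 (4.63%), within 5000 bp 587 (16.2%) and within 10000 bp 975 (26.9%). At the other end, 779 (21.5%) were more than 100000 bp from a union peak of either mark, 146 of them on X, and 61 more than 1000000 bp. Density had no steady order with distance: medians were 474 tags per kb within 1000 bp, 565 from there to 10000 bp, 521 to 100000 bp and 413 beyond. Without X the last was 426.

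**Figure D4:**
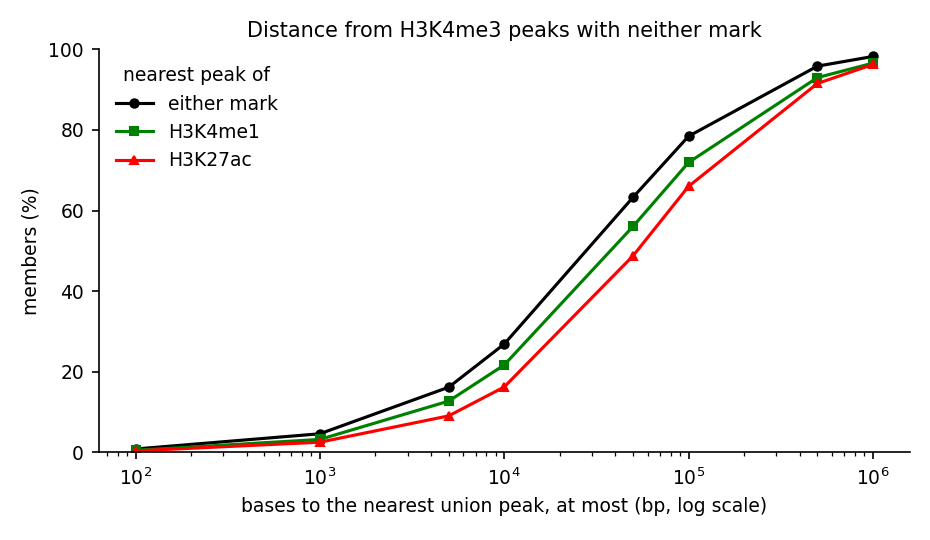
Cumulative share (%) of members with a union peak of either mark, of H3K4me1 or of H3K27ac within the distance on the x axis (bp, log scale). Within 10000 bp lie 26.9% of members for either mark, 21.7% for H3K4me1 and 16.2% for H3K27ac.

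The shortest gap belonged to chr16:22951065-22953170, a member of 648 tags at 72.9-fold, with H3K27ac 18 bases away. Close behind were chr3:69152732-69153149, 418 bp long with 102 tags and H3K4me1 21 bases away, and chr8:89149822-89151835, 276 tags with H3K27ac 24 bases away. A gap of 26 bases to H3K4me1 was shared by chr3:10330597-10331727 (914 tags) and chr6:142418639-142420467 (368 tags). A small shift of a peak edge would take these 5 out of the set.

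The farthest members were on X. The first, chrX:119510153-119511298, held 429 tags at 28.98-fold, and the nearest union peak, of H3K4me1, was 10709324 bases away. It was followed by chrX:120216519-120217851 (735 tags, 10002771 bases), chrX:126283723-126285588 (1229 tags, 3935034 bases) and chrX:78315364-78317181 (477 tags, 3273069 bases). The only autosomal peak of these 5, chr2:97306314-97308056, was weak, with 348 tags at 9.15-fold and a false discovery rate of 7.24%. The 4 X peaks had 11.93 to 37.54-fold enrichment, on both sides of the median of X members (33.7).

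Members had members as neighbours somewhat more often than other H3K4me3 peaks did. On autosomes the nearest other H3K4me3 peak was a member for 31.3% of members, and for 27.4%, 26.9% and 20.5% of peaks with H3K27ac only, H3K4me1 only and both marks. On X the values were 65.2%, 66.2%, 66.1% and 57.9%, so there members did not differ from singly marked peaks in this respect. Of the 419 members with another H3K4me3 peak within 5000 bp, 163 had a member there. Neighbouring peaks share sequence context and local background, so these shares carry no test.

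Runs of consecutive members along the H3K4me3 list were mostly short. The 3377 autosomal members formed 2344 runs, of which 1653 were a single peak and 27 had 5 or more peaks, with 145 members in them. On X, 15 of 90 runs had 5 or more peaks and held 104 of its 247 members. The longest on an autosome was 9 members over 0.405 Mb at chr5:110119465-110524595, with no union peak of either mark inside and folds of 17.15 to 65.58. On X, 12 members ran over 3.41 Mb at chrX:159265994-162678212, with no H3K27ac and 1 H3K4me1 union peak inside.

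Members were also numerous in a few windows of 1 Mb. The window at 67 to 68 Mb of chromosome 13 held 13 among 30 H3K4me3 peaks, with a median fold of 54.2 and a median length of 1169 bp, both unlike the whole set (25.3-fold, 1655 bp). The one at 110 to 111 Mb of chromosome 5 held 13 among 20, again short (median 1065 bp). At 71 to 72 Mb of X there were 13 among 23, a share below the 62.7% over all of X. Over all of chromosomes 13 and 5, members made up 29.5% and 27.3% of H3K4me3 peaks. These windows were picked for their number of members, so the counts are a description.

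Which peaks count as free of other marks depended on the lists. The authors kept 9651 of 61505 called regions for chow H3K27ac and 15355 of 80933 for chow H3K4me1, so 84.3% and 81.0% of the regions were removed by the false-discovery filter. For H3K4me3, 50.8% were removed. A member therefore overlaps no kept peak of these marks, and weaker signal below the filter was not analysed here. With the chow lists alone, 4519 H3K4me3 peaks under 4000 bp had neither mark. Of these, 891 overlapped a high-fat-diet peak and so were no members: 651 overlapped H3K27ac and 362 H3K4me1. In the opposite case, 3317 overlapped a chow peak and no high-fat-diet peak. A peak called on 1 diet and not on the other is not a measured change, since the lists differ in depth and cutoff.

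The diets were compared on the counts in the union peak nearest to each member. These neighbours are not the members, and many lie far away. For H3K27ac, 2521 distinct union peaks were nearest to 3624 members. Their median density was 19.7 CPM per kb in chow libraries 1 and 3, 19.8 in chow library 2, and 20.4, 19.6 and 19.7 in high-fat-diet libraries 1 to 3. Scaling by the total in union peaks holds such medians close together, and over all union peaks they ran from 18.7 to 18.9 CPM per kb.

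Of the 2521 H3K27ac neighbours, 44 (1.75%) passed edgeR's quasi-likelihood test at a Benjamini-Hochberg adjusted p of 0.05, 30 up and 14 down on the high-fat diet. Over all 11235 H3K27ac union peaks the share was 1.91% (1.2% higher and 0.712% lower). The share among neighbours at any distance was thus close to the background. The median log2 change was −0.01 among these neighbours and −0.01 over all peaks. In 439 neighbours (17.4%) the 3 high-fat-diet libraries did not overlap the 3 chow libraries, against 19.3% of all union peaks. DESeq2 called 31 of them and 150 of all. The authors' deposited table called 38 (1.51%) at the same threshold, where it called 1.77% of all. The count changed when a library was left out. It was 11 without chow replicate 1, 21 without chow 2 and 12 without chow 3. Without high-fat-diet replicate 1 it was 55, without high-fat-diet 2 it was 87 and without high-fat-diet 3 it was 15. The share over all union peaks moved with it, to 0.409%, 0.988%, 0.392%, 2.32%, 3.93% and 0.668%. Within 10000 bp of a member lay 557 of these peaks, and 17 passed edgeR's test (3.05%, against 1.91% of all union peaks), 12 higher and 5 lower. Of these 557, DESeq2 called 12, and the authors' deposited table called 14 (2.51%, against 1.77% of all). The difference from the background was not tested.

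The H3K4me1 neighbours gave a similar picture. Of 2651 distinct peaks, 38 (1.43%) passed edgeR's test, 16 higher and 22 lower, where 1.56% of all 16834 union peaks did (0.683% higher and 0.879% lower). Groups did not overlap in 585 (22.1%), against 22% of all. DESeq2 called 27 of them and 178 of all. The authors' deposited table called 62 (2.34%), where it called 2.45% of all. Here high-fat-diet replicate 1, the shallowest H3K4me1 library, mattered most. Without it 325 neighbours passed. The count was 8 without chow replicate 1, 5 without chow 2 and 11 without chow 3. It was 9 without high-fat-diet 2 and 31 without high-fat-diet 3. The share over all union peaks was 12.1%, 0.279%, 0.202%, 0.386%, 0.469% and 1.59% in these fits. Within 10000 bp lay 754 peaks, of which 12 passed (1.59%), close to the 1.56% of all.

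Some neighbours kept their call in every alternative in which they were tested. The H3K27ac union peak chr15:78755237-78759624, 5431 bases from a member of 1130 tags, held 71.9, 62.0 and 67.7 CPM in the chow libraries and 117, 99.8 and 116 CPM in the high-fat-diet libraries. All 3 high-fat-diet values lay above all chow values. Its fitted log2 change was 0.70 ± 0.09 (SE), a 1.63-fold rise (edgeR adjusted p = 0.000371). At chr1:74143822-74160719, an H3K27ac region of 16898 bp lying 9578 bases from a member, the libraries gave 211, 174 and 166 CPM on chow and 249, 309 and 317 CPM on the high-fat diet. This rise was 1.60-fold (log2 0.68 ± 0.10 SE, edgeR adjusted p = 0.000534).

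Further H3K27ac rises lay within 10000 bp. The peak chr6:125289935-125297677, 8566 bases from a member with 404 tags, went from 99.6, 122 and 102 CPM to 197, 151 and 156 CPM (log2 0.64, edgeR adjusted p = 0.00143). The peak chr7:53970616-53977235, 4132 bases from a member of 50.8-fold enrichment, went from 97.0, 94.6 and 99.0 CPM to 118, 155 and 138 CPM (log2 0.52, edgeR adjusted p = 0.0047). The nearest of those named, chr11:103121189-103127079, ended 606 bases from a member of 1102 tags. It held 71.5, 86.5 and 84.0 CPM on chow and 145, 102 and 112 CPM on the high-fat diet. Its edgeR adjusted p was 0.0106, and its call was lost without chow replicate 1 or chow replicate 3, with p up to 0.141.

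The steepest H3K27ac rise among the neighbours that kept their call was farther away. The peak chr4:43984320-43988197 lay 36253 bases from a member of 1981 tags and held 36.7, 41.4 and 32.5 CPM on chow and 77.7, 56.0 and 59.6 CPM on the high-fat diet. Its log2 change was 0.79 ± 0.13 (SE), 1.73-fold (edgeR adjusted p = 0.00146). Whether the peak and the member have any link was not tested.

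Fewer H3K27ac neighbours fell. The peak chr1:72764039-72771402, nearest to 2 members and 4833 bases from the closer, held 81.2, 76.3 and 78.8 CPM on chow and 48.2, 57.1 and 57.1 CPM on the high-fat diet. Its log2 change was −0.52 ± 0.09 (SE), 1.44-fold lower (edgeR adjusted p = 0.00492), and it kept its call in every alternative. The peak chr7:31143903-31150185, 8267 bases from a member of 243 tags, fell from 160, 179 and 176 CPM to 97.9, 130 and 127 CPM. Its edgeR adjusted p was 0.00549, and without chow replicate 3 it was 0.0501.

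**Figure D5:**
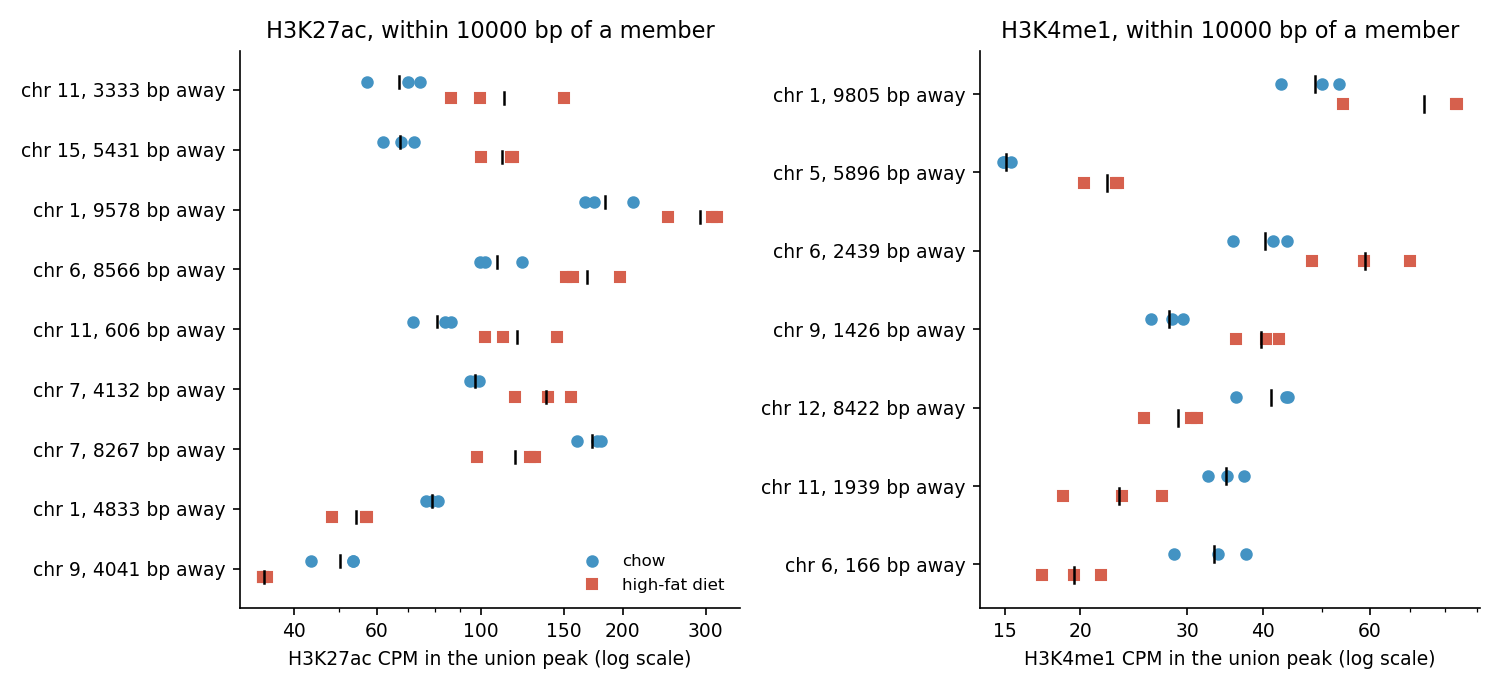
CPM (log scale) in each chow library (blue circles) and high-fat-diet library (red squares) for the named H3K27ac (left) and H3K4me1 (right) union peaks within 10000 bp of a member; black ticks are means of 3 libraries and row labels give the chromosome and the gap. The peaks were chosen for a call and for diets that do not overlap; at the chromosome 6 H3K4me1 peak 166 bases from a member, chow runs from 28.6 to 37.5 CPM and the high-fat diet from 17.3 to 21.7 CPM.

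The H3K4me1 call closest to a member was a fall. The peak chr6:72049989-72051738 began 166 bases from chr6:72046781-72049822, a member of 1998 tags (657 per kb, 39.28-fold). It held 33.7, 28.6 and 37.5 CPM on chow and 21.7, 17.3 and 19.5 CPM on the high-fat diet. The fall was 1.71-fold (log2 −0.77 ± 0.14 SE, edgeR adjusted p = 0.00367), was the steepest among the H3K4me1 neighbours named, and kept its call in every alternative. It was also the only H3K4me1 call among the 116 H3K4me1 neighbours within 1000 bp (0.862%, against 1.56% of all union peaks).

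Among H3K4me1 rises, chr4:138432363-138440458 kept its call throughout. It lay 28253 bases from a member of 1045 tags and went from 62.4, 59.6 and 66.6 CPM to 95.9, 92.1 and 109 CPM (log2 0.66 ± 0.10 SE, edgeR adjusted p = 0.000464). Nearer to members, chr9:69304010-69306553, 1426 bases away, held 29.5, 28.3 and 26.1 CPM on chow and 40.4, 42.5 and 36.1 CPM on the high-fat diet. Its edgeR adjusted p was 0.0246 and rose to 0.132 at most when a library was left out, with the call lost in 4 of the alternatives. The fall at chr11:101547688-101549993, 1939 bases away, from 34.9, 37.2 and 32.5 CPM to 27.3, 23.5 and 18.7 CPM, was lost in 5.

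At 4 members (0.110%) the nearest peaks of both marks passed, and in each the marks moved the same way. Among the 9437 other H3K4me3 peaks there were 5 (0.0530%), of which 4 moved the same way, and the difference between the groups was not tested. Near chr1:74170298-74172273 (733 tags, 17.52-fold), the H3K27ac peak described above rose by 0.68 and the H3K4me1 peak inside it by 0.60 on the log2 scale. Those peaks lay 9578 and 9805 bases away. The H3K4me1 values there were 53.4, 50.0 and 42.8 CPM on chow and 54.2, 83.4 and 83.6 CPM on the high-fat diet, so replicate 1 stayed near chow, and its call was lost in 4 alternatives (edgeR adjusted p up to 0.0975). Near chr17:43153202-43155224 (714 tags, 11.03-fold), H3K27ac rose by 0.69 and H3K4me1 by 0.64, 118435 and 94897 bases away, and the H3K4me1 call was lost in 3 alternatives (edgeR adjusted p up to 0.0773).

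The changes near the other 2 members were smaller. Near chr1:94670764-94671799 (204 tags), H3K27ac rose by 0.30 and H3K4me1 by 0.47, both more than 50000 bp away. Near chr1:137661883-137664534, a long and weak member (558 tags in 2652 bp, 7.61-fold), the log2 change was −0.37 for H3K27ac and −0.52 for H3K4me1, 49540 and 49279 bases away. Counted by member, 69 (1.90%) had a nearest H3K27ac peak that passed and 53 (1.46%) a nearest H3K4me1 peak that passed. Members can share a nearest peak, and the shares over all union peaks were close, at 1.91% for H3K27ac and 1.56% for H3K4me1.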

How the data were processed

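Per the labels, livers were profiled by chromatin immunoprecipitation and mRNA sequencing. Per the submitters' processing notes, reads were processed on build mm9 with MACS 1.4.0rc2, Bowtie 0.12.7, DESeq2 and bedtools for ChIP, and with HTSeq, TopHat 1.4.0 and DESeq2 1.0.18 for mRNA. Per the file headers, the authors called peaks on pooled replicates against pooled IgG with a p-value limit of 1e-06, and peaks above a 10 percent false discovery rate were dropped. Their deposited lists give tag counts, a score (the log10 of p, sign-reversed and scaled) capped at 3100, the fold enrichment (a ratio) and the false discovery rate in percent. The deposited union tables hold raw counts for each library and peak, and the authors' deposited tables give log2 fold changes and adjusted p-values. Deposited mRNA counts were used only for marker genes, as CPM of the library total.

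Overlap meant at least 1 shared base, and bedtools 2.31.1 returned the same 3628 members. Positions are 1-based on mm9. Tags per kb are tags divided by peak length. Each union table was fitted with edgeR 4.0.16 in R 4.3.3 (filterByExpr by diet, TMM, quasi-likelihood test, two-sided, diet as the only term), with Benjamini-Hochberg adjustment over all its union peaks and a threshold of 0.05. CPM are counts per 1000000 after TMM scaling. Exact permutation of 3 against 3 libraries cannot give p below 0.1, so it was not used. P-values measure the spread between libraries, which may be partly technical. Alternatives were DESeq2 1.42.0, total-count scaling, no filter, a replicate block, leaving out each library, neighbours within 10000 bp, other length and overlap limits, chow lists alone, stricter peaks and, added after the data were seen, autosomes alone. The fit was tested on simulated data with 200 changes planted in peaks above a count floor. It recovered 84.5% at a log2 change of 0.5 and 100% at 1 for H3K27ac (11235 peaks). For H3K4me1 (16834 peaks) it recovered 74.5% and 100%. False shares of the calls were 3.43% and 6.10% for H3K27ac and 6.29% and 4.76% for H3K4me1. No simulated library was made to deviate, so the simulation does not cover the effect of single libraries.

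Regions named are the 10 members with most tags, the 5 with the highest fold, the 5 farthest from and the 5 nearest to a union peak, and those next to the length limit. Named union peaks come from the 10 largest changes in each direction and mark among called neighbours with non-overlapping diets. The members and lists were chosen with earlier results of these data known. The 4 members near calls of both marks, and the runs and windows, were picked after their values were seen. Members were not tied to genes and no sequence is printed, because gene positions and sequence on mm9 were not used here. The planned comparisons of mRNA and of promoter H3K27ac at members were therefore not made.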

Additional observations from a re-analysis of the deposited data

How the results depend on the processing

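The number of members stayed between 2625 (length limit of 2000 bp) and 4519 (chow lists alone) under all 10 alternatives. With a limit of 2000 bp the medians became 539 tags per kb, 26.9-fold and 1480 bp. With the chow lists alone they were 556 tags per kb and 1706 bp, and with a false discovery rate of at most 1% they were 569 tags per kb and 27.6-fold. These shifts follow from which peaks each limit keeps. Diet calls among the nearest peaks ranged from 11 to 87 for H3K27ac and from 5 to 325 for H3K4me1 when 1 library was left out, and the cause was not tested. The share over all union peaks ranged from 0.392% to 3.93% and from 0.202% to 12.1% in these fits. Restricted to 10000 bp, the calls were 17 of 557 (3.05%) and 12 of 754 (1.59%), against 1.91% and 1.56% of all union peaks. Over the 20 named H3K27ac peaks, 160 of 199 alternative values kept the call, 39 lost it and 0 reversed. For the 20 named H3K4me1 peaks, 136 of 200 kept it, 64 lost it and 0 reversed.

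With a replicate block, 44 H3K27ac and 49 H3K4me1 neighbours passed, of which 39 and 37 were calls without it. Over all union peaks the share with the block was 1.74% for H3K27ac and 2.13% for H3K4me1, against 1.91% and 1.56% without it. Equal replicate numbers did not go with similar deviations (r = 0.02, −0.13 and 0.09 for H3K27ac, 0.06, −0.14 and −0.13 for H3K4me1), so no pairing was assumed. The alternatives planned for mRNA and promoter counts were not run. In the simulated data, log2 changes of 0.5 were recovered at 84.5% for H3K27ac and 74.5% for H3K4me1, so small changes can be missed. The part of depth in the number of calls was not tested. H3K4me3, present as 1 pooled list, allows no test.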
